A study of Mus musculus with 34 samples.

Results

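The signal recognition particle (SRP) RNA 7SL, its 2 annotated mouse genes Rn7s1 and Rn7s2, the repeat family 7SLRNA that collects 7SL copies across the genome, and the gene Rn7sk were followed through an H3K9me2 profile of gonads from vitamin C-deprived mouse embryos. These 4 features are 3 of the 28706 genes and 1 of the 1482 repeat families measured in soma, and 3 of 27021 genes and 1 of 1456 families in primordial germ cells (PGCs). They were picked by name, with 7SL singled out because it was among the few features with a lower signal in vitamin C-withdrawn soma. The soma contrast of these features is therefore given as a description. Rn7sk encodes 7SK and is not a 7SL gene: it shares with 7SL only that both are abundant noncoding RNAs made by RNA polymerase III, so it is reported apart from the 7SL features throughout.

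7SL is the scaffold of SRP, the ribonucleoprotein that recognises signal peptides on ribosomes and delivers the nascent chain to the endoplasmic reticulum. The B1 short interspersed elements (SINEs) of rodents descend from a processed 7SL RNA, and many truncated 7SL copies lie scattered through mammalian genomes. 7SK is the scaffold of a nuclear particle that holds the elongation kinase P-TEFb inactive. H3K9me2 is a histone mark of silent chromatin, removed by demethylases for which vitamin C is a cofactor, and the assay reads the chromatin over a gene, not the amount of its RNA.

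The embryos were female, C57BL/6, Gulo-/- and at embryonic day 13.5. Gulo is the last enzyme of vitamin C synthesis, so all of them, in every group, depended on the maternal diet, which was either depleted of vitamin C or carried physiological amounts over the first 2 weeks of gestation. Soma was the Oct4GFP-negative fraction of the sorted gonad, a mixture of cell types, and PGCs, the precursors of the gametes, were the Oct4GFP-positive fraction. CUT&RUN, in which an antibody guides a nuclease that releases nearby DNA, was run on 1000 cells per library with 18 PCR cycles. The H3K9me2 libraries comprised 3 vitamin C-withdrawn and 4 supplied libraries of soma, and 5 withdrawn and 5 supplied libraries of PGCs, with the same numbers for IgG. The libraries are genomic, so no expression marker could be used to check the sort.

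The values are those of 4 tables of limma statistics, for genes and for families in each cell type, and hold no value per library, so the spread between libraries enters only through each standard error (SE). No header says which antibody was used, and the values are taken as those of H3K9me2. No IgG value was available beside them, so how much of any signal is background was not tested. Fold changes in soma run as withdrawn minus supplied, read from the standard errors: with the 4 supplied libraries subtracted, these were fitted to within 0.33% for genes and 0.208% for families, against 3.25% and 1.64% with the 3 withdrawn libraries subtracted. PGCs have equal group sizes, so their sign could not be read and is assumed to be the same; if it runs the other way, every PGC fold change below changes sign. The depth of each library is unknown from these tables.

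In soma, both 7SL genes had a lower H3K9me2 signal when vitamin C was withdrawn, while most other genes had a higher one. In the authors' deposited table Rn7s2 (RefSeq, mm10/GRCm38 chromosome 12, 69361183 to 69361481) had a log2 fold change of -0.67 ± 0.20 (SE; limma adjusted p = 0.00188). Rn7s1 (chromosome 12, 69159295 to 69159593) had -0.65 ± 0.19 (adjusted p = 0.00209) in the authors' deposited table. These values are what singled the 2 genes out. They were called lower as part of the 0.101% of soma genes that fell past an adjusted p of 0.05, and nothing is read from that share because the choice used this contrast. The calls depend on degrees of freedom that the deposited p-values pool over all genes. Referring the deposited t to the 5 residual degrees of freedom of soma gave Benjamini-Hochberg adjusted p of 0.0533 for Rn7s2 and 0.0542 for Rn7s1. The SE within that t stays pooled, so a test on each gene's own variance was not made. Soma is a mixture, so a change of its cell makeup and a change within its cells cannot be told apart.

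The group means implied by the average, the fold change and the numbers of libraries put Rn7s2 at 519.2 CPM (read counts scaled to library depth) in withdrawn soma, against 828 CPM in supplied soma. For Rn7s1 they were 678 CPM in withdrawn soma and 1066 CPM in supplied soma. The signal of either gene in withdrawn soma was thus about 0.63 (Rn7s2) and 0.64 (Rn7s1) of that in supplied soma. The 2 genes had the most negative moderated t values of all 28706 soma genes, -3.40 for Rn7s2 and -3.36 for Rn7s1, in the authors' deposited table. By fold change alone, 120 other genes lay lower than Rn7s2, all 120 with a lower average signal and a larger SE.

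The repeat family had the same sign as the genes. 7SLRNA had a log2 fold change of -0.58 ± 0.23 (SE; adjusted p = 0.0147) among soma families in the authors' deposited table, again the most negative t of the table, at -2.56. Its implied mean was 2916 CPM in withdrawn soma, against 4349 CPM in supplied soma. It was 1 of the 6 families (0.405%) that fell. With its deposited t referred to 5 residual degrees of freedom in the same way, its adjusted p became 0.0714. The family table was fitted apart from the gene table, and the copies of Rn7s1 and Rn7s2 may be counted in both, so the family is not a second, separate observation of the same decrease. Just inside the threshold lay Plekhd1os among genes (adjusted p = 0.04996, log2 fold change -0.50) and (CACTC)n among families (adjusted p = 0.049, -0.59), per the authors' deposited tables. Just outside lay Gm41728 (adjusted p = 0.0507, -0.77) and (CGGAA)n (adjusted p = 0.0529, -0.60), per the authors' deposited tables.

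Rn7sk (chromosome 9, 78175302 to 78175633) had a log2 fold change of -0.30 ± 0.39 (SE; adjusted p = 0.482) for soma genes in the authors' deposited table, which is within its error. Its implied means were 7.77 CPM in withdrawn soma and 9.57 CPM in supplied soma. At that low signal its 95% interval ran from -1.07 to 0.47, which takes in both the values of the 7SL genes and no change.

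**Figure D1:**
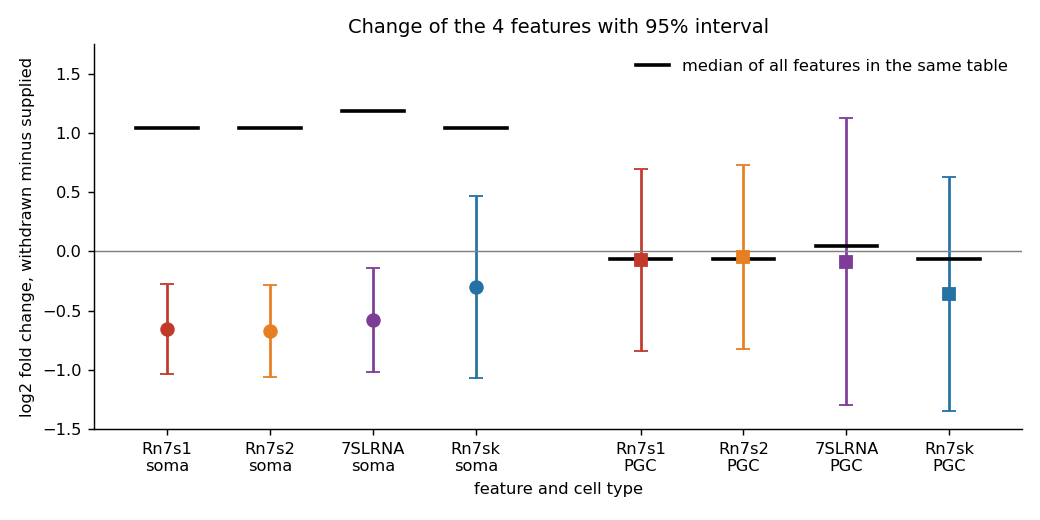
Log2 fold change, withdrawn minus supplied (y axis), of the 4 features in soma and in PGCs (x axis), with 95% intervals from the degrees of freedom behind the authors' deposited tables; black bars mark the median of all features in the same table. In soma Rn7s1, Rn7s2 and 7SLRNA sit at -0.65, -0.67 and -0.58, far below medians of 1.04 for genes and 1.18 for families, whereas in PGCs every interval spans the median.

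How these decreases read depends on the scale. The median soma gene stood at a log2 fold change of 1.04 and the median family at 1.18, and 68.2% of genes and 77% of families rose, in the authors' deposited tables. The group means implied for all genes add up to 1453016 CPM in withdrawn soma and 747458 CPM in supplied soma. Such means could not exceed the total that CPM is defined by if each library were scaled to its own sum over the table, so another scaling was applied, which the sources used here do not give. Measured from the median of their own table, the differences were -1.69 for Rn7s1, -1.71 for Rn7s2, -1.76 for 7SLRNA and -1.34 for Rn7sk. On that relative scale the 7SL features lay 3.23-fold (Rn7s1), 3.28-fold (Rn7s2) and 3.39-fold (7SLRNA) below the typical feature, with the same sign as on the deposited scale.

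Most features with as strong a signal stood higher, though a few had similar decreases. Among the 145 other genes within 0.5 of the average log2 CPM of Rn7s2 in soma, 0 had a lower log2 fold change, and their median was 1.02. Of the 145, 130 rose, beside 68.2% of all genes, and 4 fell (2.76%, against 0.101% of all genes), with Rn7s1 among the 4. Around Rn7s1, 1 of 115 lay lower, that 1 being Rn7s2, and the median log2 fold change was 1.04. Of these 115, 106 rose and 3 fell, with Rn7s2 among the 3. Of the 40 families of like average, 0 lay lower than 7SLRNA, 0 fell and 28 rose, beside 0.405% and 77% of all families. The lowest of those 40 stood at 0.091 and their median at 0.88. The simple repeat (CATTC)n, just beyond that window at an average of 12.37 log2 CPM, fell with a log2 fold change of -0.55, per the authors' deposited table. Around Rn7sk, 27 of 5430 genes of like average lay lower. These counts describe where the 4 features lie in the contrast that picked 7SL and are no test of it.

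**Figure D2:**
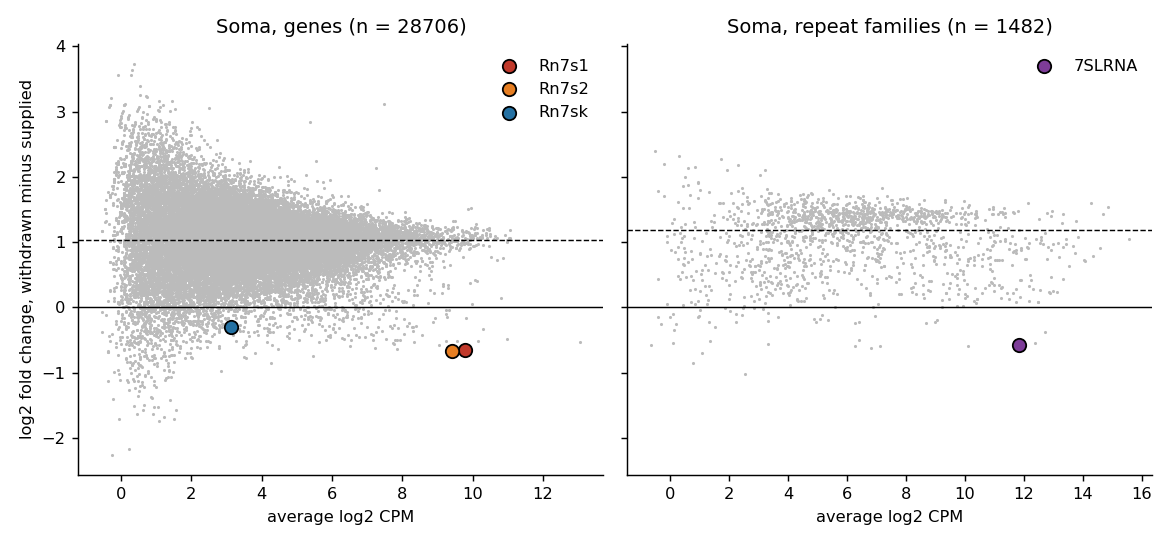
Average log2 CPM (x axis) against log2 fold change, withdrawn minus supplied (y axis), for each of 28706 genes (left) and 1482 repeat families (right) in soma; the dashed line is the median (1.04 and 1.18) and the solid line 0. Rn7s1 and Rn7s2 at averages of 9.78 and 9.40, and 7SLRNA at 11.84, lie below most features of the same average.

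The 7SL genes carried the densest signal of all genes with a matched length. Per kilobase of RefSeq gene span, Rn7s1 reached an average of 2937 CPM in soma and Rn7s2 2267 CPM, ranking 1 and 2 of 26517 genes with a matched length. The next gene, the long noncoding Gm34259, had 398 CPM per kilobase, and Rn7sk had 26.4, at rank 57. Gm34259 also fell in soma, at -0.52 ± 0.16 (SE; limma adjusted p = 0.00356) in the authors' deposited table. The 3 matched genes with the densest signal were thus also the 3 genes with the most negative t. The same 3 genes held ranks 1 to 3 of 25059 genes in PGCs, where Rn7s1 had 7675, Rn7s2 5910 and Gm34259 1072 CPM per kilobase, with Rn7sk at 78.3 and rank 45. A span of 299 bases, the length of each 7SL gene, thus held a signal like that of whole long genes. How much of this signal IgG libraries would also hold was not tested. Over all matched soma genes the average followed the log2 length of the gene (Pearson r = 0.92 across genes, which share libraries and are not independent). Whether reads that fit several 7SL copies were counted once, split or dropped is not stated in the sources used here, and the copies are near-identical, so the values of Rn7s1 and Rn7s2 are uncertain as values of single loci.

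The values of the 2 copies kept a fixed proportion. Rn7s1 exceeded Rn7s2 by 0.37 in average log2 CPM in soma and by 0.38 in PGCs, or 1.30-fold in each. Their soma log2 fold changes differed by far less than the SE of either, and the 2 genes were each other's nearest neighbour in the distance over 4 values described below. As the genes are of equal length and may share reads, this is a likeness of 2 rows that need not be independent.

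Genes that surround the 7SL loci rose in soma at a share near the background. Of the 13 other genes measured in soma within 150 kb of either 7SL gene, 8 rose and 0 fell, per the authors' deposited table, against 68.2% and 0.101% of all soma genes. Their log2 fold changes had a median of 1.14 and ran from 0.061 to 1.85. No annotated gene overlapped either copy, and the copies lie 201590 bases apart. Nemf, a ribosome quality control factor 3982 bases from Rn7s2, stood at 0.86 ± 0.27 and rose, per the authors' deposited table. Arf6, a small GTPase of membrane traffic 10669 bases on the other side, stood at 0.27 ± 0.35 and did not pass, in the same authors' deposited table. Rps29, only 109 bases from Rn7s1, was not measured in soma. Lrr1, a ubiquitin ligase adaptor 9221 bases from Rn7s1, rose by 1.14 ± 0.45, and the DNA polymerase subunit gene Pole2, between the copies, stood at 0.65 ± 0.31, per the authors' deposited table. Around Rn7sk, 4 of 8 measured genes rose and 0 fell, against the same 68.2% and 0.101%. Their log2 fold changes had a median of 0.79 and ran from -0.085 to 2.22. The nearest, C920006O11Rik at 281 bases, stood at 0.83 ± 0.66 and did not pass. The glutathione transferase gene Gsta4 rose by 1.07 ± 0.37, per the authors' deposited table. The neighbours had averages of at most 5.21 log2 CPM, far under those of the 7SL genes.

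**Figure D3:**
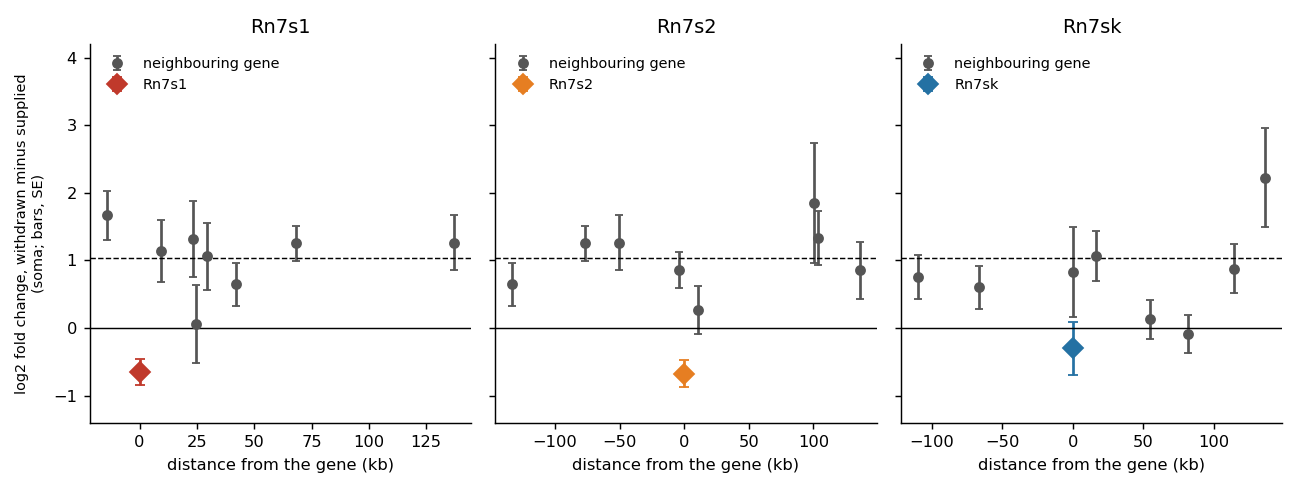
Distance in kilobases from Rn7s1, Rn7s2 or Rn7sk (x axis) against the soma log2 fold change, withdrawn minus supplied, with its SE (y axis), for each measured gene within 150 kb; the coloured diamond is the named gene, and the dashed line the median of all genes (1.04). Every neighbour of the 2 7SL genes lies above 0, from 0.061 to 1.85, and the 7SL genes lie below it.

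In PGCs none of the 4 features differed between withdrawn and supplied embryos beyond its error. This contrast played no part in picking them. Rn7s1 had a log2 fold change of -0.072 ± 0.39 (SE; limma adjusted p = 1) and Rn7s2 of -0.044 ± 0.40 (adjusted p = 1) in the authors' deposited table, against a median gene at -0.064. 7SLRNA had -0.085 ± 0.59 (adjusted p = 0.9997) and Rn7sk -0.36 ± 0.50 (adjusted p = 1) in the authors' deposited tables. By limma, 0% of genes and 0% of families passed in either direction in PGCs. An unadjusted p under 0.05 was reached by 266 genes (0.984%) and 2 families (0.137%), none of the 4 features among them. The SD of t was 0.71 over PGC genes and 0.65 over PGC families. The deposited errors were thus wide beside the spread of the fold changes, and the lack of calls carries little weight. The 95% intervals ran from -0.84 to 0.69 for Rn7s1, from -0.82 to 0.73 for Rn7s2, from -1.29 to 1.12 for 7SLRNA and from -1.34 to 0.63 for Rn7sk. All 4 take in the -0.65 and -0.67 of the 7SL genes in soma, so a decrease of that size is not shown to be absent. The implied means of Rn7s1 were 2238 CPM in withdrawn and 2353 CPM in supplied PGCs, and those of Rn7s2 were 1740 CPM in withdrawn and 1795 CPM in supplied PGCs. For 7SLRNA they were 8642 CPM in withdrawn and 9165 CPM in supplied PGCs, and for Rn7sk 23.0 CPM in withdrawn and 29.4 CPM in supplied PGCs. Whether the soma and PGC fold changes differ was not tested, since the soma value picked the 7SL features.

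All 4 features had a higher average signal in PGCs than in soma. The average log2 CPM was higher in PGCs by 1.39 for Rn7s1, 1.38 for Rn7s2 and 1.57 for Rn7sk, whereas the median over the 26721 shared genes differed by -0.0021. Fewer than 1% of the shared genes lay further towards PGCs than any of these 3, from 0.434% for Rn7sk to 0.861% for Rn7s2. 7SLRNA was higher by 1.28, against a median of -0.55 over 1445 shared families, and 1.87% of families lay further. The shift was not particular to these 4: the 5S genes had a median average log2 CPM of 2.65 in soma and 4.23 in PGCs. The ribosomal RNA families had 9.83 in soma and 11.05 in PGCs. Some related families, such as 7SK at 6.70 in soma and 6.64 in PGCs, did not share it. Because the soma averages mix a lower withdrawn and a higher supplied level for 7SL, the comparison was also made within a vitamin C state. Rn7s1 was 1.72 higher in withdrawn PGCs than in withdrawn soma and 1.14 higher in supplied PGCs than in supplied soma, where the median gene stood at -0.63 and 0.47. The order of the implied levels was the same for all 4 features: withdrawn soma lowest, then supplied soma, withdrawn PGCs and supplied PGCs, of which the last 2 did not differ beyond their error for any of the 4, nor the first 2 for Rn7sk. With the PGC sign turned, supplied PGCs come before withdrawn PGCs. The soma and PGC tables were fitted separately, and whether they share a scaling is not given, so these differences in level have no test and no error.

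**Figure D4:**
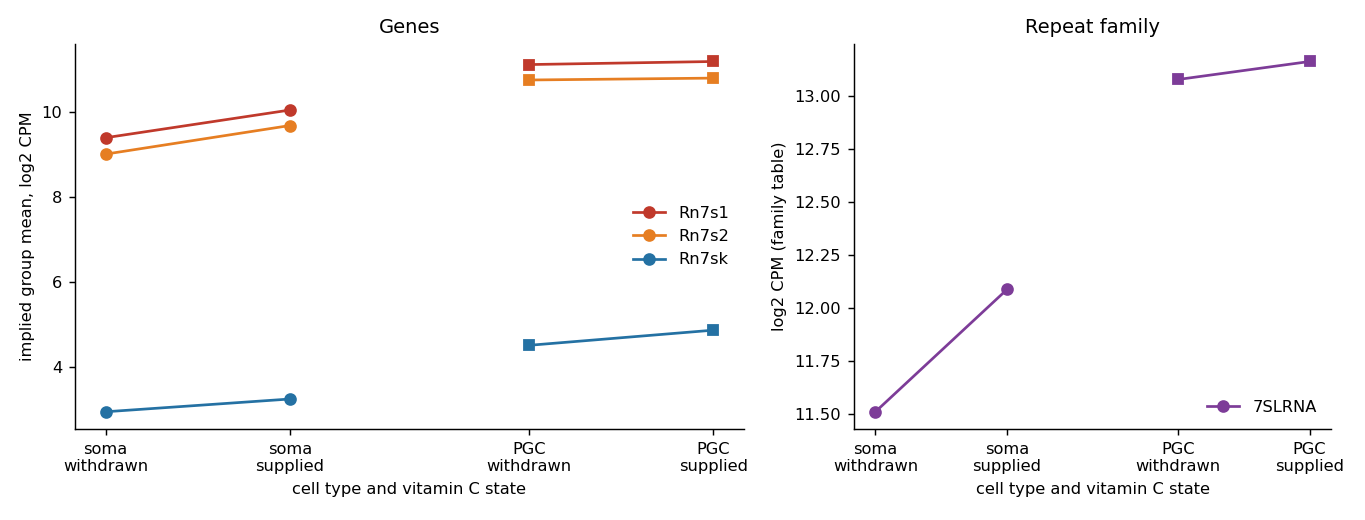
Implied group mean in log2 CPM (y axis) of the 3 genes (left) and of 7SLRNA (right, on its own scale) in each cell type and vitamin C state (x axis); lines join the states of 1 cell type. Rn7s1 stands at 9.41 in withdrawn soma, against 10.06 in supplied soma, while its 2 PGC values, 11.13 withdrawn and 11.20 supplied, are close together.

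SINE families that descend from 7SL had soma fold changes above that of 7SLRNA and below that of the median family. All 16 measured families of this kind had a log2 fold change below the 1.18 of the median family, and their own median was 0.36. Of the 16, 7 rose, 0 fell and 9 did not pass, per the authors' deposited table, against 77% of all families that rose and 0.405% that fell. The lowest were PB1, the proto-B1 monomer, at -0.38 ± 0.22 (limma adjusted p = 0.0984) and FAM, a fossil monomer, at -0.22 ± 0.31 (adjusted p = 0.503), per the authors' deposited table. B1_Mm, a young B1 subfamily, stood at 0.28 ± 0.22 without passing, in the authors' deposited table. The highest, B1_Mur4 and B1_Mur1, rose by 0.89 ± 0.23 and 0.84 ± 0.22, per the authors' deposited table. Their averages ran from 4.95 for FAM to 13.33 for B1_Mus1 in log2 CPM. In PGCs the same 16 families ranged from -0.20 to 0.11, and by limma 0 passed and 0 had an unadjusted p under 0.05. How far reads are shared between 7SLRNA and the B1 families was not tested.

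**Figure D5:**
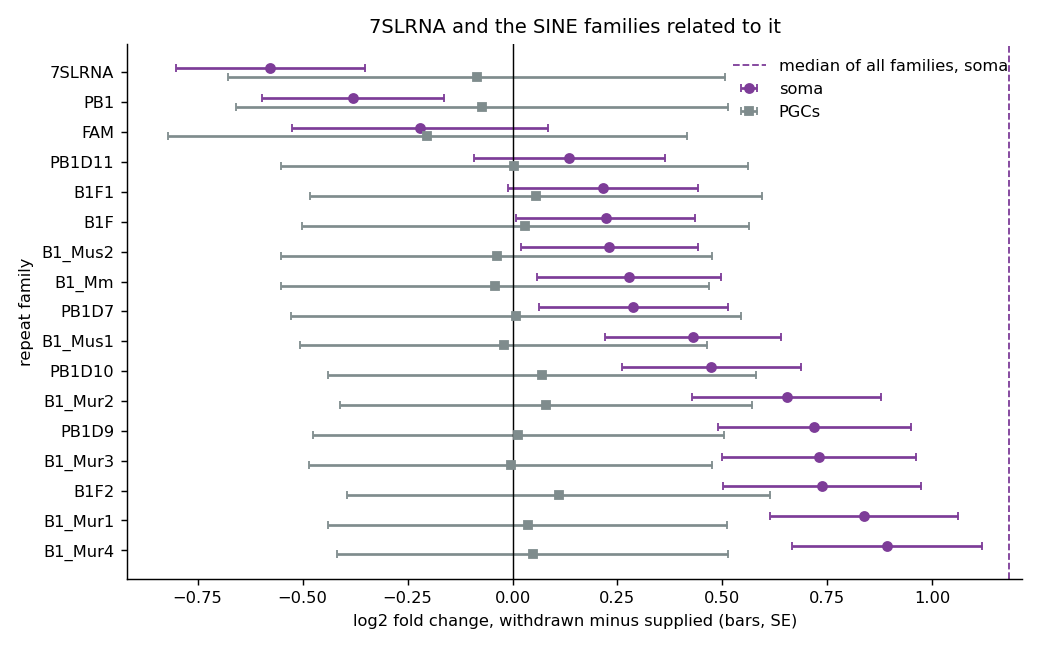
Log2 fold change, withdrawn minus supplied, with its SE (x axis) for 7SLRNA and 16 related SINE families (y axis, ordered by the soma value) in soma (circles) and PGCs (squares). 7SLRNA, PB1 and FAM lie below 0 in soma, and all 17 families lie left of the dashed line at the soma median of 1.18, while PGC values cluster around 0.

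Genes for the proteins that work with 7SL also rose in soma at a share near the background. Of the 10 measured SRP protein and receptor genes, 7 rose and 0 fell, per the authors' deposited table, against 68.2% and 0.101% of all genes. The median log2 fold change of the 10 was 1.19, near the 1.04 of all genes. Srp9, which with Srp14 binds the Alu domain of 7SL, rose by 1.55 ± 0.46 and the signal-peptide binding subunit Srp54b by 1.49 ± 0.31, per the authors' deposited table. Srpr, the receptor subunit, and Srp14 did not pass, at 0.35 ± 0.46 and 0.41 ± 0.70 in the authors' deposited table. The 3 Srp54 copies are near-identical and may share reads. RNA polymerase III and its factors gave 21 of 31 risen and 0 fallen, with a median of 0.99, against the same shares of all genes. Snapc5, a subunit of the complex that recruits the polymerase to 7SK-type promoters, rose by 2.36 ± 0.81 and the polymerase subunit Polr3d by 1.55 ± 0.57, per the authors' deposited table. Gtf3a, which binds the 5S gene, and Gtf3c2, a TFIIIC subunit, stood at -0.099 ± 0.65 and 0.0058 ± 0.25 in the authors' deposited table and did not pass. In PGCs 0 of 10 SRP and 0 of 29 polymerase III genes passed by limma, with 0 and 1 at an unadjusted p under 0.05.

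For the partners of 7SK, the median soma log2 fold change was 1.03, beside 1.04 for all genes. Of the 7 genes of the 7SK particle and P-TEFb, 4 rose in soma and 0 fell, per the authors' deposited table, against 68.2% and 0.101% of all genes. Cdk9, the P-TEFb kinase, rose by 1.71 ± 0.56 and its cyclin Ccnt1 by 1.46 ± 0.33, while Mepce, the capping enzyme of 7SK, stood at 0.16 ± 0.47 and Larp7, which binds its end, at 0.39 ± 0.37, per the authors' deposited table. In PGCs 0 of the 7 passed by limma and 1, Larp7, had an unadjusted p under 0.05. The repeat family 7SK, which pools 7SK copies across the genome, rose in soma by 0.99 ± 0.28 (limma adjusted p = 0.000905) in the authors' deposited table. Rn7sk in the gene table thus had the opposite sign to the family, within its error, and the difference between them was not tested because the 2 tables were fitted apart.

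Other structured RNAs mostly lay below the median feature in soma, and none passed as fallen. Of 30 measured genes for 5S, U, Y and related RNAs, 0 rose and 0 fell by limma in the authors' deposited table, against 68.2% and 0.101% of all genes, and 0 had an unadjusted p under 0.05. Their median log2 fold change was 0.11, and all 30 lay below the gene median of 1.04. Their median average was 2.58 log2 CPM, against 3.40 for all soma genes, so the shares that passed are compared at unlike signal. The 25 near-identical 5S genes, from n-R5s122 at -0.54 and n-R5s133 at -0.40 to n-R5s103 at 0.63, form most of this list and may share reads, and Rmrp, the RNA of RNase MRP, stood at 0.55 ± 0.87, per the authors' deposited table. In PGCs 32 genes of the list were measured, 0 passed by limma and 0 had an unadjusted p under 0.05, and the 25 5S genes had a median of -0.46. Of 68 structured RNA repeat families in soma, 14 rose and 0 fell, against 77% and 0.405% of all families, and 62 lay below the family median, with a median of 0.49. Here too the signal was unlike, with a median average of 2.22 log2 CPM against 5.87 for all soma families. Whether families of like average would pass as seldom was not tested. The extremes were tRNA-Glu-GAG and tRNA-Pro-CCA, at -0.85 ± 0.63 and -0.52 ± 0.56 without passing, and tRNA-Ala-GCY_ and tRNA-Leu-TTA(m), which rose by 1.55 ± 0.28 and 1.52 ± 0.44, per the authors' deposited table. LSU-rRNA_Hsa and SSU-rRNA_Hsa, the ribosomal RNA families, stood at 0.015 and 0.019 there. Of 71 such families in PGCs, 0 passed by limma and 0 had an unadjusted p under 0.05. No gene of the snoRNA and scaRNA list had a row in these tables.

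The rows most like each feature were found by Euclidean distance over 4 values, the log2 fold change and average log2 CPM in soma and in PGCs, each divided by its SD over the shared features. The soma fold change is 1 of these values, so a likeness in that contrast follows from the choice and is no test. For Rn7s1 the nearest were Rn7s2 (distance 0.296), the cold-shock protein gene Ybx3 (0.365), Zfp949 (0.378), the peptidase gene Dpp9 (0.564) and Prkdc, the DNA-dependent protein kinase (0.724), against a median distance of 6.15 to all genes considered. Rn7s2 had Rn7s1 and the same other 4. Of these, Ybx3, Zfp949 and Dpp9 had soma log2 fold changes of -0.52, -0.52 and -0.51 and passed, and Prkdc had -0.34 (limma adjusted p = 0.0974) and did not, per the authors' deposited table. Of all soma genes 0.101% fell, and nothing is read from the contrast with that share. For 7SLRNA the nearest families were the simple repeat (CATTC)n (0.382), PB1 (0.549), (GAATG)n (0.874), PB1D11 (1.51) and LSU-rRNA_Hsa (1.56). For Rn7sk they were Zfp503 (0.298), Ddn (0.328), Hscb (0.420), n-R5s123 (0.430) and n-R5s113 (0.445), none of which passed in soma by limma in the authors' deposited table.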

How the data were processed

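Vitamin C-withdrawn and supplied libraries were grouped as the labels give them. Trim Galore 0.4.0, Bowtie2 2.2.5, Picard and mm10 are named in the submitters' processing notes, and the counting over genes and families, the filters and the library scaling are not given in the sources used here. Per the file headers, the 4 tables are voom and limma output. The authors' deposited tables give log2 fold changes and averages as log2 CPM, t as a score, p-values with their Benjamini-Hochberg adjustment, and B as a natural log of odds.

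The standard error is the log2 fold change divided by t. The deposited adjusted p-values were recomputed and matched. Behind the p-values lie 143530 (soma genes), 216168 (PGC genes), 7410 (soma families) and 29.6 (PGC families) degrees of freedom, found from t. Of these, the first 3 are the residual 5 or 8 pooled over all features.

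Contrast direction was read by fitting the squared standard errors as a smooth function (11 knots) of each group's level divided by its library number. It was checked on 2 simulated data sets of 28706 soma genes, made with limma 3.58.1 in R 4.3.3, and the direction was recovered in 2. Both gave the groups similar depth and the smaller group the higher level, and the fit with free depth was not run on them. They therefore do not cover groups of unequal depth, and the depth of the real libraries is unknown. Other values were computed in Python 3.11.15 with SciPy 1.17.1. Implied group means ignore the weights of voom. Lengths and positions are from RefSeq GRCm38.p6 by symbol, with 2189 soma genes and 1962 PGC genes unmatched.

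The 4 features, the lists of related features and the naming rule (the 2 lowest and 2 highest of each list in soma and the 5 nearest rows, predicted genes left out) were chosen with earlier results of these data known, and the neighbouring genes and B1_Mm, LSU-rRNA_Hsa, SSU-rRNA_Hsa and the 7SK family were added after their values were seen. Nothing says that replicates came from separate embryos, so p-values measure a spread between libraries. Except for PGC families, that spread was pooled over all features and is not that of the single feature named.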

Additional observations from a re-analysis of the deposited data

How the results depend on the processing

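The deposited t was also referred to the 5 residual degrees of freedom of soma in place of the pooled ones. Rn7s1 (-0.65, adjusted p = 0.0542), Rn7s2 (-0.67, adjusted p = 0.0533) and 7SLRNA (-0.58, adjusted p = 0.0714) then no longer passed. At that setting 0 genes and 0 families fell, against 29 and 6, so these calls depend on the degrees of freedom used. The SE stayed pooled, so a test on each feature's own variance was not made. At a threshold of 0.01, 7SLRNA (-0.58) did not pass either. Relative to the table median, 374 of 28706 soma genes and 130 of 1482 soma families passed as lower at an adjusted p under 0.05. On that scale Rn7sk passed at -1.34 (adjusted p = 0.048, recomputed with the deposited SE). Rn7s2 in PGCs turned from -0.044 to 0.019, neither past the threshold. Relative to the implied sum of CPM, a scale chosen after seeing the data, Rn7sk stood at -1.26 (adjusted p = 0.0991) and did not pass, while Rn7s1, Rn7s2 and 7SLRNA kept sign and call at -1.61, -1.63 and -1.51. In a window of 0.25 the share of genes of like average lying lower was 0% for Rn7s1 and 0.324% for Rn7sk, against 0.87% and 0.497%. With the depth of each side free, also added later, the misfits still favoured withdrawn minus supplied, by 0.657 percentage points for genes and 0.651 for families. On unscaled values 5, 3, 1 and 1 of the 5 nearest rows of Rn7s1, Rn7s2, Rn7sk and 7SLRNA were shared. No paired analysis was possible because the tables hold no values per library, and leaving out libraries was not run for the same reason. These tables give no depth per library, and the errors in PGCs limit what can be seen there.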
